A study of Mus musculus with 6 samples.

Results

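The Cyp4 genes encode cytochrome P450 enzymes that hydroxylate fatty acids and eicosanoids, and 10 of them were followed here in mouse liver: Cyp4a10, Cyp4a12a, Cyp4a12b, Cyp4a14, Cyp4a31, Cyp4a32, Cyp4f13, Cyp4f14, Cyp4f15 and Cyp4v3. They were chosen by name, with earlier results of these data known, as 10 of the 47243 gene names listed once with a usable value for every mouse. All 10 were also among the 18628 genes that passed the filter on low values, which asks that a gene exceed a zFPKM of -3 in no fewer than 3 of 6 mice.

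Polyadenylated RNA of the liver was sequenced from 3 laboratory mice (C57BL/6, an inbred strain) and 3 wild mice of the same species. The laboratory mice were all males, bought when a few months old and killed on arrival. The wild mice were adults of unstated age, trapped alive at Australian sites and kept for some months in captivity before they were killed, and comprised 1 male (wild 1) and 2 females (wild 2 and wild 3). Each mouse was sampled once, no mouse received a treatment, and the frozen liver had not been fixed. The laboratory specimens were prepared earlier than the wild ones. Origin, breeding history, housing, date of collection and, for 2 of 3 wild mice, sex therefore differed together. They cannot be told apart in the direct comparison of the groups, and age may have differed too. Levels are given as FPKM, fragments scaled to transcript length and library size, so that different genes can be compared. Differences were tested on zFPKM, the log2 FPKM of a mouse less the mode of its own distribution and divided by an SD fitted to that distribution.

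A P450 of this family places a hydroxyl group at or next to the far end of a fatty acid chain, a reaction called omega hydroxylation. Alcohol and aldehyde dehydrogenases then turn the product into a dicarboxylic acid, which peroxisomes shorten by beta-oxidation. In rodent liver, Cyp4a10 and Cyp4a14 are classical targets of the nuclear receptor PPAR-alpha, which fatty acids, fasting and fibrate drugs activate. Cyp4a12a forms the omega-hydroxylated product of arachidonic acid and is known as a male-predominant gene in mouse liver and kidney. Enzymes of the Cyp4f group inactivate leukotrienes, and Cyp4v3 is the mouse counterpart of the human gene mutated in Bieti crystalline dystrophy of the eye.

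The 10 genes lie at 3 places in the genome, given here on GRCm38. The 6 Cyp4a genes lie on chromosome 4 between 115299046 (start of Cyp4a12a) and 115622507 (end of Cyp4a32). The 3 Cyp4f genes lie on chromosome 17 between 32685631 (start of Cyp4f15) and 32947415 (end of Cyp4f13), and Cyp4v3 lies on chromosome 8 from 45305801 to 45333163.

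Several members are near-identical copies, which decides how far their reads can be told apart. The coding sequence around the cysteine that binds the haem iron, the part of a P450 that carries out the reaction, is shown for each distinct version, 60 bases long from the 5′ end. The sequences come from GENCODE transcripts on GRCm38, each stretch crosses a splice junction between neighbouring coding exons, and capitals mark bases unlike Cyp4a10.
Cyp4a10, Cyp4a31 and Cyp4a32 (Cyp4a10 at chr4:115529487-115532558, plus strand, exons 11 and 12): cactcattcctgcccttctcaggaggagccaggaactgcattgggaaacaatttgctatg
Cyp4a12a and Cyp4a12b (Cyp4a12a at chr4:115328971-115331861, plus strand, exons 11 and 12): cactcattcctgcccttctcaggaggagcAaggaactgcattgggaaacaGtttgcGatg
Cyp4a14 (chr4:115487284-115489820, minus strand, exons 11 and 12): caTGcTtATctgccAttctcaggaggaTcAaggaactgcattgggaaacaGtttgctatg
Cyp4f13 (chr17:32924927-32925355, minus strand, exons 12 and 13): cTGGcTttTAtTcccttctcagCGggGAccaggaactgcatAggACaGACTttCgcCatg
Cyp4f14 (chr17:32905651-32906080, minus strand, exons 11 and 12): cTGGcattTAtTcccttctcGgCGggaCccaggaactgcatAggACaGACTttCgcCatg
Cyp4f15 (chr17:32702383-32702816, plus strand, exons 12 and 13): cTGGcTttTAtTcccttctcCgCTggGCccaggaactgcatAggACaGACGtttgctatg
Cyp4v3 (chr8:45307092-45308422, minus strand, exons 10 and 11): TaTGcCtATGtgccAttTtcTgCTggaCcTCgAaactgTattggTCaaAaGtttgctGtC

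Over this stretch Cyp4a10, Cyp4a31 and Cyp4a32 did not differ at any base, and the Cyp4a12 copies shared the same 3 bases unlike Cyp4a10. Cyp4a14 had 9 such bases, Cyp4f13 20, Cyp4f14 and Cyp4f15 19 each, and Cyp4v3 23. Over the whole coding sequence, Cyp4a12a and Cyp4a12b were 98.5% identical, Cyp4a10 was 96.6% identical to Cyp4a31 and 97.2% to Cyp4a32, and Cyp4a10 was only 75.1% identical to Cyp4a14. The reads were 100 bases long. Of all windows of that length, 35.8% of the Cyp4a12a transcript and 36.2% of the Cyp4a12b transcript occurred without a mismatch in another member, as did 12.7% for Cyp4a10, 8.22% for Cyp4a31 and 20.1% for Cyp4a32. None did for Cyp4a14, Cyp4v3 and the Cyp4f genes. The division of reads within the Cyp4a12 pair and within the Cyp4a10, Cyp4a31 and Cyp4a32 trio is therefore uncertain, and their sums are given too. Only reference transcripts were compared, so how reads from alleles of the wild mice were assigned was not tested. A predicted locus overlaps each of Cyp4a12a, Cyp4a12b, Cyp4a14 and Cyp4v3, and all 4 of these loci had an FPKM of at most 0.0610 in every mouse.

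Libraries and markers were checked before the members were compared. The recorded sex matched Xist (FPKM between 7.18 and 40.6 in females, at most 0.0506 in males) and the Y-linked genes in every mouse. All 10 hepatocyte markers with a usable value had a mean zFPKM above 2. Their summed FPKM was between 69936 and 85720 in laboratory and between 47394 and 53307 in wild mice. Single markers went both ways: every laboratory FPKM lay above every wild FPKM for 4 of 10 and below it for 5 of 10. Such cases made up 12.1% and 43.7% of all tested genes. The sum follows the most abundant markers, such as Apoa2 (mean FPKM 30592 in laboratory and 17054 in wild mice), whereas Cyp2e1 had 343 and 3461. Defining markers of kidney and intestine, organs that also use Cyp4a genes, were nearly absent: 6 of 7 kidney markers were listed at 0 in every mouse and the summed FPKM did not exceed 0.0631, while 2 of 4 intestinal markers were listed at 0 and the sum did not exceed 1.01. Laboratory 3 and wild 1 had the highest modes of log2 FPKM, at 2.12 and 2.51, against 0.491 to 1.77 in the other mice. The choice of scale moved all genes together. The median difference between laboratory and wild mice over all tested genes was 0.00 in zFPKM but -0.47 in log2(FPKM + 0.1), so that 43.7% of all tested genes had every laboratory FPKM below every wild FPKM and 12.1% the opposite, 55.8% in all. The depth of the libraries is unknown, and in whole liver fewer cells of a type and less RNA per cell cannot be told apart.

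The first comparison set the 3 laboratory mice against the 3 wild mice, the contrast of the study. Expression of the Cyp4 genes separated into opposite directions. By limma on zFPKM with Benjamini-Hochberg adjustment over all tested genes, 8 of 10 members passed an adjusted p of 0.05, where 14.5% of all tested genes did. Cyp4a10, Cyp4a14, Cyp4a31 and Cyp4a32 were higher in wild mice (4 of 10, against 7.28% of all tested genes). Cyp4a12a, Cyp4a12b, Cyp4f13 and Cyp4v3 were higher in laboratory mice (4 of 10, against 7.17%). Cyp4f14 and Cyp4f15 did not pass the test. In this fit limma set the spread of a gene from its mean level, by a trend over all genes, and not from its own mice. Cyp4a12a and Ppara, both with a mean zFPKM of 0.747, thus both had an SE of 0.175, although Cyp4a12a ran from 1.52 to -2.27 in wild mice. The SE and p of this comparison therefore do not measure how far the mice of a gene differed. When limma did not let the variance depend on expression level, Cyp4a10, Cyp4a14 and Cyp4a32 alone passed, with 4.27% of all tested genes. By FPKM alone, the groups did not overlap for 7 of 10 members, 5 of them higher in wild mice, which is a share not far above the 55.8% of all tested genes.

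**Figure D1:**
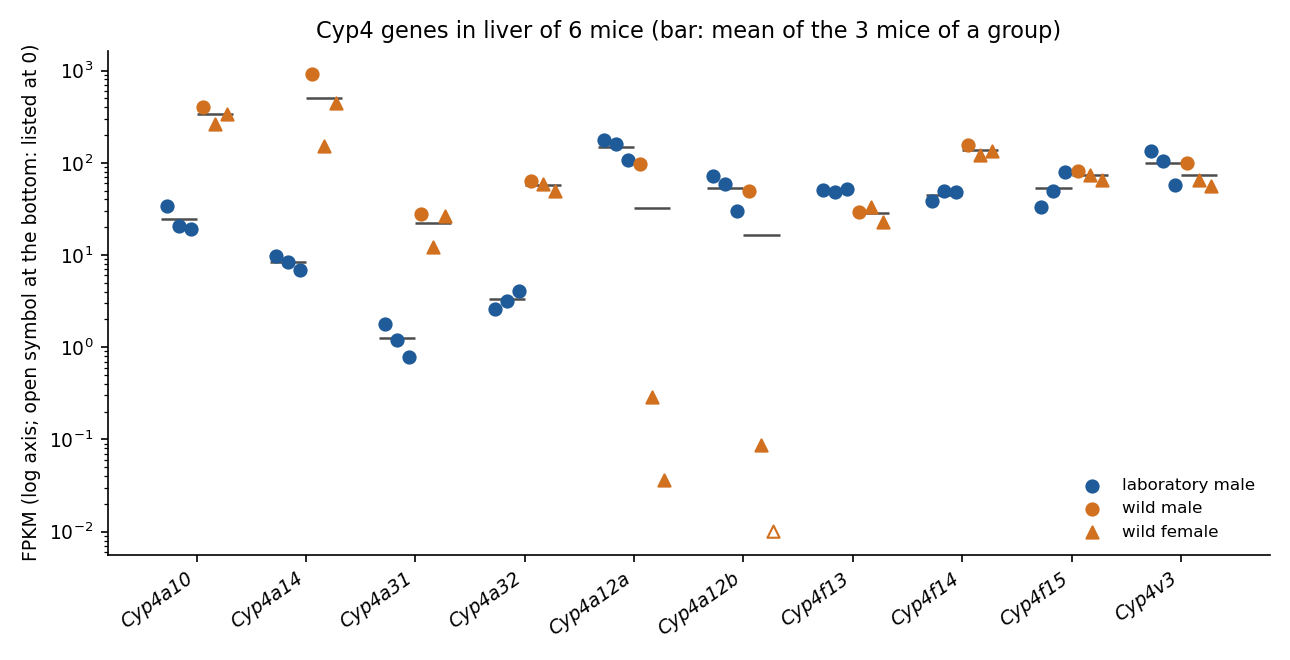
FPKM of the 10 Cyp4 genes (log axis) in each of the 3 laboratory males (blue circles), the wild male (orange circle) and the 2 wild females (orange triangles), with horizontal bars at the mean of the 3 mice of a group and an open symbol for the value listed at 0. Cyp4a10, Cyp4a14, Cyp4a31 and Cyp4a32 stand higher in every wild mouse, while Cyp4a12a and Cyp4a12b are near 0 only in the wild females.

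Among the PPAR-alpha-responsive pair, Cyp4a14 had FPKM values of 9.80, 8.44 and 6.87 in the laboratory group, compared with 926, 152 and 445 in the wild group. The groups did not overlap, and the wild mice varied among themselves more than the laboratory mice did, the wild male being the highest and wild 2 the lowest. The means were 8.37 ± 1.47 (SD, n = 3) and 508 ± 391 (SD, n = 3), a 60.6-fold higher level in wild mice, and the zFPKM difference, laboratory minus wild, was -1.72 (SE 0.133, limma adjusted p = 2.9e-35). Cyp4a14 was the eighth of the 10 members by mean level in laboratory mice and the first in wild mice.

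Cyp4a10, the most highly expressed of the near-identical trio, had FPKM values of 33.7, 20.5 and 19.2 in the laboratory group, compared with 400, 266 and 338 in the wild group. Every wild mouse thus stood well above every laboratory mouse. The means of 24.5 ± 8.02 and 335 ± 67.2 (SD, n = 3 each) differed 13.7-fold, and the zFPKM difference was -1.08 (SE 0.125, limma adjusted p = 1.1e-15).

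Cyp4a31 and Cyp4a32, the other copies of that trio, were the lowest members in laboratory mice. Cyp4a31 had FPKM values of 1.80, 1.21 and 0.782 in the laboratory group, compared with 27.6, 12.3 and 26.5 in the wild group, 17.5-fold higher on average, with a zFPKM difference of -1.22 (SE 0.217, limma adjusted p = 1.1e-06). Cyp4a32 had FPKM values of 2.61, 3.16 and 4.12 in the laboratory group, compared with 63.7, 58.5 and 49.3 in the wild group, 17.4-fold higher, with a zFPKM difference of -1.18 (SE 0.173, limma adjusted p = 7.2e-10). Neither gene overlapped between groups. The sum of Cyp4a10, Cyp4a31 and Cyp4a32, which depends less on how shared reads were divided among them, was 38.1, 24.9 and 24.1 in the laboratory group, compared with 492, 337 and 413 in the wild group. The 14.3-fold difference of the sums was complete between groups, with p = 0.1 in a two-sided exact permutation test, the smallest p that 3 mice against 3 can give.

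The Cyp4a12 pair, the male-predominant members, differed the other way, and with sex. Cyp4a12a reached an FPKM of 177, 162 and 107 in laboratory males and 97.3 in the wild male, but 0.287 in wild 2 and 0.0360 in wild 3. Cyp4a12b had 71.5, 59.4 and 30.3 in laboratory males, 49.7 in the wild male and 0.0865 in wild 2, and was listed at 0 in wild 3. The wild male lay just under the laboratory males for Cyp4a12a and within their range for Cyp4a12b, whereas both females were close to 0: Cufflinks, the program that calculated FPKM, bounded Cyp4a12a between 0.152 and 0.423 in wild 2 and between 0 and 0.0874 in wild 3. The zFPKM differences, laboratory minus wild, were 2.66 for Cyp4a12a (SE 0.175, limma adjusted p = 4.6e-49) and 2.67 for Cyp4a12b (SE 0.224, limma adjusted p = 7.1e-30). The call of Cyp4a12b was lost on log2(FPKM + 0.1), where the difference was 5.70 and the adjusted p 0.061, in a range of 3.6e-30 to 0.45 over all settings, and that of Cyp4a12a on log2(FPKM + 1), where the difference was 4.85 and the adjusted p 0.054, in a range of 4.6e-49 to 0.45. The sum of both copies was 248, 221 and 137 in the laboratory group, compared with 147, 0.374 and 0.0360 in the wild group, and gave p = 0.2 in the two-sided exact permutation test, because the wild male exceeded laboratory 3.

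These opposite differences changed which Cyp4a genes made up the total. Cyp4a12a and Cyp4a12b together accounted for 83.8%, 86.9% and 81.6% of the summed Cyp4a FPKM in laboratory mice, for 9.39% in the wild male and for just 0.0764% and 0.00419% in wild 2 and wild 3. The sum over all 6 Cyp4a genes was 296, 254 and 168 in the laboratory group, compared with 1564, 489 and 859 in the wild group, 4.05-fold higher in wild mice with no overlap (exact permutation p = 0.1). The wild male kept a Cyp4a12 level close to that of laboratory males, and its small share came with the highest Cyp4a14 and Cyp4a10 of the 6 mice. Cyp4a14 relative to Cyp4a10 was between 0.291 and 0.412 in the laboratory group, compared with 0.570 to 2.31 in the wild group (exact permutation p = 0.1).

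**Figure D2:**
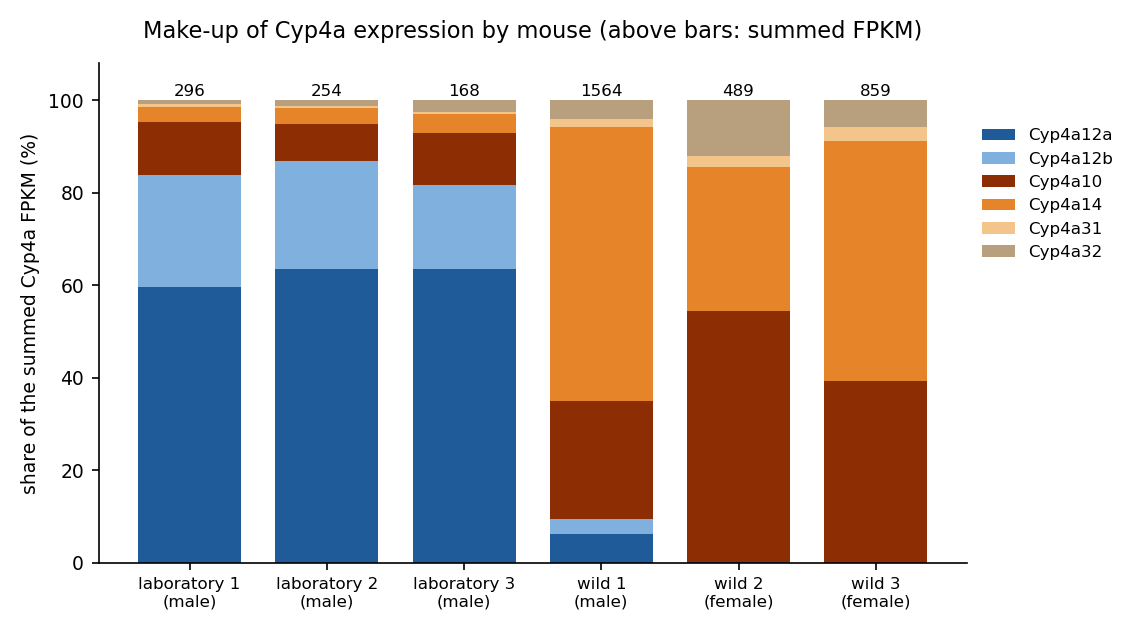
Share of each Cyp4a gene in the summed Cyp4a FPKM of a mouse (bars, in percent), with the summed FPKM above each bar. The 2 Cyp4a12 copies (blue) fill more than 80% of the bars of the 3 laboratory males and 9.39% of that of the wild male, and cannot be seen in those of the 2 wild females.

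Among the Cyp4f genes, Cyp4f13 and Cyp4f14 are neighbours on chromosome 17 and differed in opposite directions in FPKM. Cyp4f13 had FPKM values of 50.2, 48.0 and 52.5 in the laboratory group, compared with 29.2, 32.9 and 22.9 in the wild group, without overlap. Its level was 1.77-fold higher in laboratory mice, with a zFPKM difference of 0.55 (SE 0.143, limma adjusted p = 0.0021). The call was lost without laboratory 1 (difference 0.49, adjusted p = 0.053).

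Cyp4f14, which hydroxylates leukotriene B4, had FPKM values of 38.8, 49.0 and 48.1 in the laboratory group, compared with 155, 121 and 133 in the wild group. The groups did not overlap and the mean was 3.01-fold higher in wild mice, yet the zFPKM difference of -0.30 (SE 0.127) did not pass (limma adjusted p = 0.096). On log2(FPKM + 0.1) the difference was -1.59 and passed (adjusted p = 0.00025), the lowest of a range that reached 0.40 over all settings. The ratio of both genes within a mouse does not depend on the scaling factor of its library. Cyp4f14 over Cyp4f13 was 0.773, 1.02 and 0.916 in the laboratory group, compared with 5.29, 3.69 and 5.82 in the wild group, so that the ratios did not overlap (exact permutation p = 0.1).

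Cyp4f15 and Cyp4v3 had the smallest fold differences. Cyp4f15 had FPKM values of 33.1, 49.0 and 79.0 in the laboratory group, compared with 81.1, 72.8 and 64.7 in the wild group, overlapping between groups. Its zFPKM difference was 0.09 (SE 0.131, limma adjusted p = 0.75) and turned to -0.53 on log2(FPKM + 0.1). Cyp4v3 had 135, 104 and 56.7 in the laboratory group, compared with 101, 65.3 and 55.6 in the wild group, which also overlapped, with a zFPKM difference of 0.36 (SE 0.126, limma adjusted p = 0.033). That call was lost when any 1 of laboratory 1, laboratory 2, wild 1, wild 2 or wild 3 was left out, with differences between 0.23 and 0.39, and on log2(FPKM + 0.1), where the adjusted p was 0.42.

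The order of the levels changed accordingly. In laboratory mice Cyp4a12a led with a mean FPKM of 149 ± 36.8 (SD, n = 3), followed by Cyp4v3, Cyp4a12b, Cyp4f15, Cyp4f13 and Cyp4f14. Each of these overlapped its neighbour in the order. Cyp4a10, Cyp4a14, Cyp4a32 and Cyp4a31 came below them, each clear of the next. In wild mice Cyp4a14 and Cyp4a10 led and overlapped each other, and Cyp4f14 followed, clear of its neighbours Cyp4a10 above and Cyp4v3 below but not of Cyp4a14, whose lowest value lay within its range. In the wild females Cyp4a12a and Cyp4a12b were last, with the next member, Cyp4a31, at 12.3 and 26.5.

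The second comparison asked what remained of the difference in origin at equal sex. With sex in the model, the origin term sets the single wild male against the 3 laboratory males. A lone mouse has no spread. The spread comes from the 3 laboratory males, the 2 wild females and, through limma, other genes of like mean level. By limma on zFPKM, 4 of 10 members passed, where 7.37% of all tested genes did: 3 were higher in the wild male (against 1.34% of all tested genes) and 1 was lower in it (against 6.03%). The median difference over all tested genes was 0.27 in zFPKM, laboratory minus wild, and the values below are read beside it. The count was 0 without wild 2 or without wild 3 (4 each by limma at an unadjusted p under 0.05), where 0 of all tested genes passed. It was 7 without laboratory 3, where 43.4% of all tested genes passed, and 0 without the trend of limma (5 at an unadjusted p under 0.05), where 1.75% did.

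Cyp4a14, 111-fold higher in the wild male than in the laboratory mean by FPKM, had a zFPKM difference of -2.09 (SE 0.241, limma adjusted p = 0.00071). Cyp4a10 was 16.4-fold higher, with a difference of -1.12 (SE 0.199, limma adjusted p = 0.0066). Cyp4a32 was 19.3-fold higher, with a difference of -1.11 (SE 0.203, limma adjusted p = 0.0072). These values share the wild male and all laboratory mice with the first comparison. Cyp4a31 was 21.8-fold higher by FPKM and had a difference of -1.19 (SE 0.347) that did not pass (limma adjusted p = 0.054), and did pass with a median of 0 set in each mouse (difference -1.47, adjusted p = 0.0089, in a range of 0.00042 to 0.69 over all settings).

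Cyp4f13 was lower in the wild male, with a zFPKM difference of 0.68 (SE 0.173, limma adjusted p = 0.034), a call lost with a median of 0 in each mouse (0.40, adjusted p = 0.10) and without laboratory 1, laboratory 2, wild 2 or wild 3. The Cyp4a12 genes did not pass: the difference was 0.55 for Cyp4a12a (SE 0.354, limma adjusted p = 0.38) and 0.38 for Cyp4a12b (SE 0.432, limma adjusted p = 0.65). Cyp4f14, Cyp4f15 and Cyp4v3 did not pass either, with differences of -0.27, 0.15 and 0.30. Those of Cyp4f15 and Cyp4v3 turned to -0.69 and -0.12 on log2(FPKM + 0.1). Cyp4f14 passed on that scale (-1.78, adjusted p = 0.0027), on log2(FPKM + 1) and after quantile normalization, in a range of adjusted p up to 0.69, and without laboratory 3 both Cyp4f14 (-0.21, adjusted p = 0.032) and Cyp4v3 (0.49, adjusted p = 0.015) passed.

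The third comparison, the sex term of the same model, set the wild male against the 2 wild females. Both Cyp4a12 genes were higher in the male, 2 of 10 members where 0.376% of all tested genes passed in either direction and 0.0591% as higher in the male. The zFPKM difference, male minus female, was 3.16 for Cyp4a12a (SE 0.376, limma adjusted p = 0.0012) and 3.44 for Cyp4a12b (SE 0.459, limma adjusted p = 0.0029), beside a median of -0.38 over all tested genes. Both calls were lost without the trend, without wild 2 or without wild 3, the latter mice giving differences between 2.52 and 3.79 for Cyp4a12a and between 2.71 and 4.16 for Cyp4a12b. With 1 male in this contrast, the result rests on that animal.

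The other 8 members did not pass. Cyp4a14 had the largest difference among them, 0.56 (SE 0.256, limma adjusted p = 0.46), with 926 in the male against 152 and 445 in the females by FPKM. The remaining 7 had differences between -0.20 (Cyp4f13) and 0.09 (Cyp4v3), and those of Cyp4a31, Cyp4a32, Cyp4f13, Cyp4f14 and Cyp4f15 changed sign with the scaling. With 1 male and 2 females, a call missed here does not show that the sexes had equal levels.

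**Figure D3:**
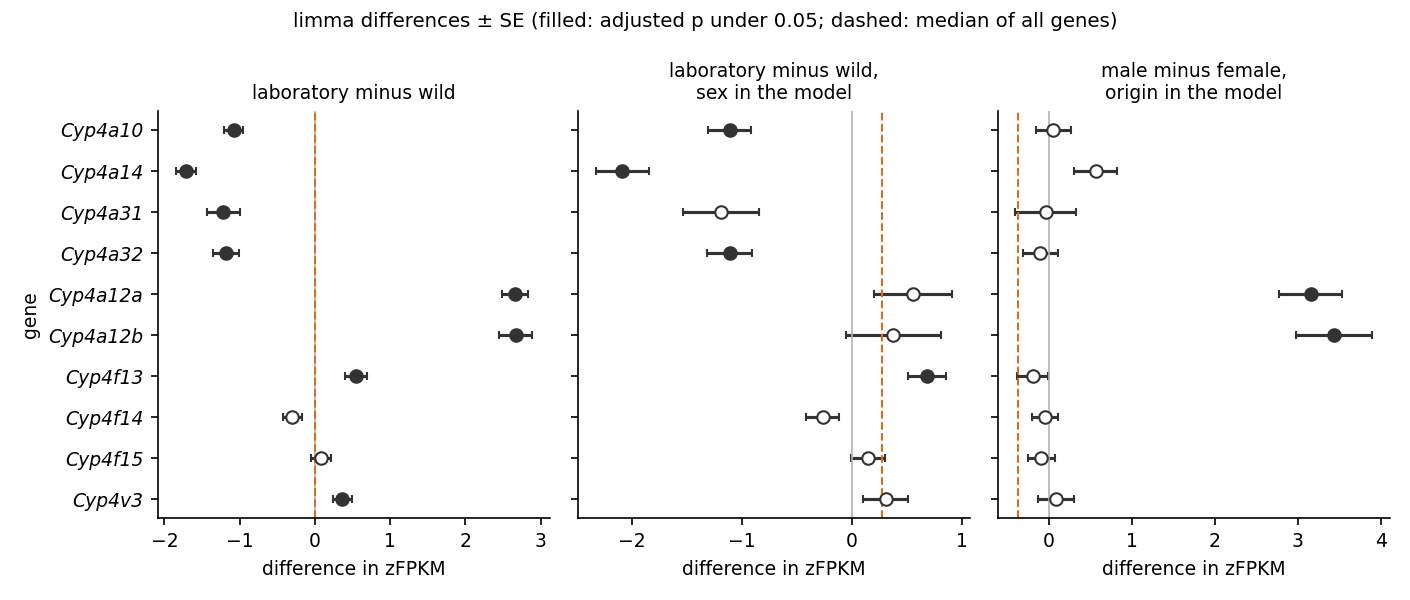
Differences in zFPKM of the 10 Cyp4 genes (points, bars of 1 SE) for laboratory minus wild (left), the same with sex in the model (middle) and male minus female with origin in the model (right). Filled points passed an adjusted p of 0.05, and the dashed line is the median of all tested genes, at 0.00, 0.27 and -0.38. The Cyp4a12 genes are far from 0 on the left and right but not in the middle, and Cyp4f15 (in all panels), Cyp4v3 (middle) and Cyp4a31, Cyp4a32, Cyp4f13 and Cyp4f14 (right) changed sign on other scales.

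Genes of the same pathway were then described from lists of known members. These lists, like those by sex below, were chosen with earlier results of these data known, so their counts are not independent support. Of 14 other Cyp4 genes and pseudogenes, 9 passed the filter. The test between laboratory and wild mice was passed by 1 of these 9, where 14.5% of all tested genes did. This was the pseudogene Cyp4f41-ps, which was higher in laboratory mice at an FPKM of at most 0.451. Cyp4f17, the highest of this list by mean zFPKM, had a mean FPKM of 4.22 in laboratory and 3.75 in wild mice, while Cyp4b1 had 3.89 and 4.10, and the other relatives were lower. The members, summed, reached between 404 and 1930 FPKM.

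PPAR-alpha and its known targets in fatty acid oxidation and ketogenesis, without the Cyp4a genes, numbered 26 genes with a usable value. Of these, 14 were higher in wild mice (background 7.28%), 1 was higher in laboratory mice (background 7.17%) and 11 did not pass. The median zFPKM difference of the list was -0.40, beside 0.00 for all tested genes. The largest differences were those of Acot3 and Acot1, which hydrolyse fatty acyl-CoA, and of Ehhadh, a peroxisomal enzyme of beta-oxidation that also degrades dicarboxylic acids.

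Ehhadh had FPKM values of 2.47, 5.08 and 2.64 in the laboratory group, compared with 295, 216 and 159 in the wild group (zFPKM difference -1.87, SE 0.152, limma adjusted p = 7.9e-32). Acot1 had 1.67, 1.93 and 1.42 in the laboratory group, compared with 68.1, 30.1 and 66.8 in the wild group (difference -1.49, SE 0.188, limma adjusted p = 3.2e-13). Acot3 had 0.0983, 0.105 and 0.164 in the laboratory group, compared with 5.30, 32.9 and 25.9 in the wild group (difference -2.20, SE 0.305, limma adjusted p = 6.1e-11). None of the 3 genes overlapped between groups. Fabp1, the abundant fatty acid binding protein of hepatocytes and the gene of highest mean zFPKM on the list, was the exception that was higher in laboratory mice, at 13668, 12341 and 10413 against 7333, 5257 and 5542 (difference 0.62, SE 0.0788, limma adjusted p = 8.0e-13). Pdk4, the lowest of the list, did not pass in zFPKM (-0.70, limma adjusted p = 0.13) but did on log2(FPKM + 0.1) (-2.49, adjusted p = 0.0076), and its groups did not overlap. Ppara itself had FPKM values of 8.04, 9.47 and 8.20 against 15.7, 18.7 and 26.5, without overlap. It too did not pass in zFPKM (-0.17, SE 0.175, limma adjusted p = 0.59) but did on log2(FPKM + 0.1) (-1.20, adjusted p = 0.0030, in a range that reached 0.93 over all settings).

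At equal sex, 6 of the 26 genes were higher in the wild male (background 1.34%), Ehhadh (-1.96), Acot1 (-1.50) and Acot3 (-1.44) among them. A further 2 were lower in it, near the background of 6.03%: Fabp1 (0.47) and Fgf21 (1.65), which encodes a fasting hormone. Fabp1 did not pass on log2(FPKM + 0.1), where its difference at equal sex was 0.72. None of the 26 passed between the sexes by limma, and 6 had an unadjusted p under 0.05. The list describes genes known to respond together with Cyp4a10 and Cyp4a14, and whether the receptor had a part in the differences was not tested.

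Of 11 partners of omega oxidation (electron donors, dehydrogenases and peroxisomal carriers), 4 were higher in wild mice (background 7.28%) and 0 in laboratory mice (background 7.17%). These were Aldh3a2, the fatty aldehyde dehydrogenase (mean FPKM 30.2 against 137, zFPKM difference -0.50, limma adjusted p = 0.0020), the peroxisomal importers Abcd3 (44.8 against 187, -0.45, adjusted p = 0.0035) and Abcd2 (0.614 against 7.86, -0.82, adjusted p = 0.033), and Por, the reductase that hands electrons to every microsomal P450 (42.9 against 171, -0.41, adjusted p = 0.013). Cyb5a, the highest of this list, did not pass in zFPKM (0.01, limma adjusted p = 0.98), whereas on log2(FPKM + 0.1) the difference was -0.73 and passed (adjusted p = 0.031), with mean FPKM of 1038 and 1702 and no overlap. At equal sex Abcd3 alone passed (-0.53, adjusted p = 0.047), and between the sexes none did (2 at an unadjusted p under 0.05). The median of the list was -0.24 between laboratory and wild mice. Abcd2 was high in the wild females alone, at 12.4 and 10.1 FPKM, against 1.17 in the wild male and 0.406 to 0.928 in laboratory males. Its zFPKM difference was 0.17 at equal sex, laboratory minus wild, and -1.49 between the sexes, male minus female.

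**Figure D4:**
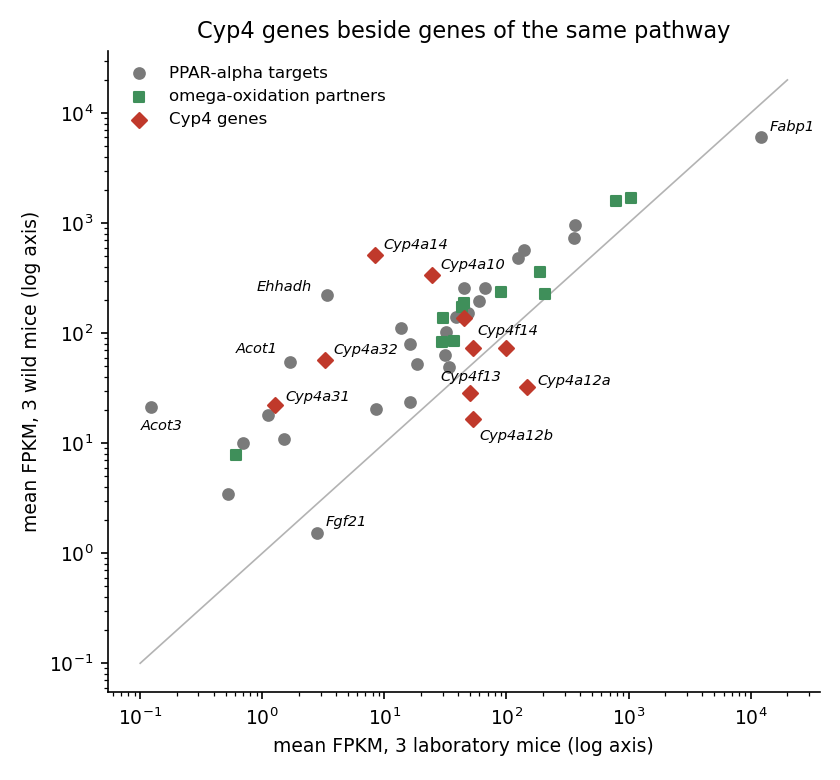
Mean FPKM in the 3 wild mice against that in the 3 laboratory mice (both log axes) for the 10 Cyp4 genes (red diamonds), 26 PPAR-alpha genes (grey circles) and 11 partners of omega oxidation (green squares), with the line of equal level. Cyp4a10, Cyp4a14, Cyp4a31, Cyp4a32, Ehhadh, Acot1 and Acot3 lie far above the line, and Cyp4a12a, Cyp4a12b, Cyp4f13, Fabp1 and Fgf21 below it.

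The behaviour of the Cyp4a12 pair was set beside other genes that are known to differ by sex in mouse liver. Of 8 male-biased genes with a usable value, 2 passed as higher in the male: Cyp2d9 (difference 1.24, limma adjusted p = 0.00071), whose level was 655 FPKM in the wild male against 43.6 and 44.3 in the females, and Elovl3 (2.16, limma adjusted p = 0.040). Over all 18628 tested genes, 11 passed as higher and 59 as lower in the male. Of 14 female-biased genes, 11 passed as lower in the male, by up to -4.52 for Sult3a1. Without wild 2 or without wild 3, 0 of all tested genes passed between the sexes, these included. Between laboratory and wild mice, 5 of the male-biased genes were higher (background 7.17%) and 1 was lower (background 7.28%) in laboratory mice. All 14 female-biased genes were lower in laboratory mice (background 7.28%). Of these, Cyp2b9, Cyp2b13, Sult2a1, Sult3a1 and A1bg, listed at 0 in every laboratory mouse, passed the filter only through the wild mice. Their direction in this count and at equal sex was therefore fixed in advance by the filter and the floor on zFPKM. At equal sex, 11 of the 14 female-biased genes were still higher in the wild male than in laboratory males (background 1.34%). Of the 8 male-biased genes, 2, Hsd3b5 and Selenbp2, were lower in the wild male (background 6.03%). Several of the 11 were low in the wild male: Sult2a1, Cyp2b13, Sult3a1, A1bg and Hao2 had 0.254, 0.303, 0.438, 0.459 and 0.853 FPKM. They reached 41.9 to 2076 FPKM in the females, and all were listed at 0 in laboratory mice except Hao2 in laboratory 3 (0.0293). Cyp2b9 was listed at 0 in every laboratory mouse and reached 29.7 FPKM in the wild male, and Hsd3b5 had 104, 87.3 and 60.3 against 4.21. Others of the 11 were well expressed in the wild male: Cyp17a1, Cyp3a44 and Cyp2a4 had 96.9, 62.1 and 36.3 FPKM. In laboratory mice they did not exceed 4.93, 0.883 and 4.94.

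Genes with the profile most like Cyp4a12a and Cyp4a14 were sought over the 6 mice by the root mean square difference of zFPKM after each gene was centred on its own mean. For Cyp4a12a the nearest were Eif2s3y (0.450), Ddx3y (0.457), Pitx3 (0.470), Elovl3 (0.489) and LOC115486422 (0.568), the first 2 being genes of the Y chromosome. Elovl3, an elongase of very long chain fatty acids, reached 52.6, 66.7 and 49.6 FPKM in laboratory males and 43.4 in the wild male, against 1.15 and 0.0955 in the wild females. For Cyp4a14 the nearest were Gm10260 (0.211), Acot1 (0.231), Mmd2 (0.232), Slc4a9 (0.236) and Cyp2c29 (0.237). All of these were low in the 3 laboratory mice and high in the 3 wild mice. Among them Cyp2c29, another P450, had 33.0, 59.5 and 43.9 FPKM in laboratory mice against 2763, 1344 and 1129 in wild mice.

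The genes that flank the Cyp4 clusters were also read. The 3 nearest tested genes outside the Cyp4 family were taken on each side of the Cyp4a and Cyp4f genes described here, 12 in all. Of these, 1 passed between laboratory and wild mice, where 14.5% of all tested genes did. This was Pdzk1ip1, which lies before the Cyp4a cluster on chromosome 4 (115088708 to 115093894). It was higher in laboratory mice, with an FPKM of 15.0, 15.1 and 25.5 against 2.65, 3.24 and 1.67 (zFPKM difference 1.26, SE 0.202, limma adjusted p = 3.1e-08), and so differed in the direction of Cyp4a12a and against that of Cyp4a10. Next to the Cyp4f cluster, Pglyrp2 had FPKM values of 24.1, 27.6 and 22.6 in the laboratory group, compared with 62.1, 84.3 and 65.0 in the wild group, without passing (-0.27, SE 0.140, limma adjusted p = 0.21).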

How the data were processed

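Liver RNA of 3 laboratory and 3 wild mice was sequenced from stranded mRNA libraries. The authors aligned the reads with kalign to a masked genome (GRCm38.p6 in the submitters' processing notes), calculated FPKM with the Tuxedo pipeline and deposited FPKM per gene. They also deposited zFPKM, a score made from log2 FPKM with the R package zFPKM. Whether counting used the strand is not given in the sources used here. Counts were not used here, so the depth is unknown. Precision rests on the 3 mice per group and on the spread that limma takes from other genes.

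From 47256 names listed once for every mouse, 13 with a failed estimate were left out (failures are not marked for laboratory 1). zFPKM was floored at -3 and tested with limma 3.58.1 in R 4.3.3 (trend, Benjamini-Hochberg, adjusted p under 0.05), with and without sex. Genes with several entries, such as Acadl, Acadvl, Angptl4, Mup20 and Cps1, and Alb, whose estimate failed, were not analysed here. For sums and ratios the exact permutation test was two-sided. The fits were tested on simulated data. Of 200 of 18628 genes shifted by 2, 67% were called between laboratory and wild mice and 19% between the sexes. These shares hold only for the spread that was simulated, which need not match that of the wild mice. They do not show what share of true differences the fits found in the real mice. Sequences came from GENCODE transcripts through Python 3.11.15. The alternatives were other scales, floors, filters, normalizations, no trend and mice left out. Named genes were all members, the highest, lowest and up to 3 called genes of largest difference per list, the 5 nearest profiles and the flanking genes, of which not every one is printed. Por, Ppara, Cyp4b1, A1bg and Cyp17a1 were named after their values were seen. The members and lists were chosen with earlier results of these data known.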

Additional observations from a re-analysis of the deposited data

How the results depend on the processing

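Counts of called members depended on the variance model. Without the trend, 3 members passed between laboratory and wild mice, 0 at equal sex and 0 between the sexes. The shares of all tested genes were 4.27%, 1.75% and 0.0644%. Without a filter on low values 0 members passed in each of the 3 comparisons, where 0.0487%, 0.699% and 0.686% of all 47243 genes did. By limma at an unadjusted p under 0.05 these counts of 0 were 5 and 2 without the trend, and 6, 4 and 2 without a filter. With a floor of -5, 1 member passed between the sexes, where 0.327% of all tested genes did. With 1 mouse left out, 6 to 8 members passed between laboratory and wild mice, 0 to 7 at equal sex (7 without laboratory 3, where 43.4% of all tested genes passed) and 0 to 2 between the sexes. In these fits between 7.63% and 13.7% of all tested genes passed between laboratory and wild mice. Between the sexes the share reached 26.6%, without laboratory 3. The additive model could not be fitted without wild 1, since sex and origin then coincide. With laboratory 3 and wild 1 both left out, an alternative chosen after seeing the data, 9 members passed, as did 30.5% of all tested genes. With 1 mouse left out, the differences of the sums ranged from 129 to 202 FPKM for the Cyp4a12 pair and from -424 to -346 FPKM for Cyp4a10, Cyp4a31 and Cyp4a32. The cause of these changes was not tested.

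Signs changed only for members that did not pass. On log2(FPKM + 0.1) and log2(FPKM + 1), Cyp4f15 turned to -0.53 and -0.52 between laboratory and wild mice and to -0.69 and -0.67 at equal sex (-0.13 with a median of 0 in each mouse), and Cyp4v3 to -0.12 on both at equal sex. Between the sexes, in the order log2(FPKM + 0.1), log2(FPKM + 1), quantile normalization and a median of 0, Cyp4a31 turned to 0.60, 0.58, 0.21 and 0.43, Cyp4a32 to 0.25, 0.24, 0.0930 and 0.37, Cyp4f13 to 0.0871, 0.0837, 0.0380 and 0.27, Cyp4f14 to 0.28, 0.28, 0.12 and 0.43, and Cyp4f15 to 0.24, 0.24, 0.0781 and 0.38. With 1 mouse left out, Cyp4a10 ranged from -0.0149 (without wild 2) to 0.120 and Cyp4a31 from -0.181 to 0.104 (without wild 3). No paired analysis was possible because the labels give no replicate numbers and the mice of the groups are different animals with nothing that ties one to another.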
